A study of Homo sapiens with 53 samples.

Results

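The region described is the imprinted H19 and IGF2 locus on chromosome 11, taken as hg19 chr11:2000000-2185000. Every peak that overlapped this 185 kb window was included, whatever its strength, and the choice used no measured value. The window held 311 of the 706206 peaks in 10 deposited peak lists. Of these, 120 were CTCF peaks under BPK-25 and 23 were CTCF peaks under DMSO. MBD3 gave 115 peaks under BPK-25 and 48 under DMSO. TET3 gave 2 under BPK-25 and 3 under DMSO, and the TET1 and TET2 lists gave 0 in either treatment. H19 was placed at chr11:2016406-2019065 and IGF2 at chr11:2150348-2170833, as gene bodies without exon annotation, and the imprinting control region was taken as about chr11:2019500-2024500. Both genes are read toward lower coordinates, so the control region lies just before the H19 start, on the side of IGF2.

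The data are chromatin immunoprecipitation with sequencing (ChIP-seq) in HEK293T, a human embryonic kidney line, exposed for 72 h to the compound BPK-25 at 30 µM or to its solvent DMSO. CTCF and MBD3 were immunoprecipitated with antibodies to the proteins, and TET1, TET2 and TET3 through a Flag tag in lines derived from HEK293T by editing, whose clonality the labels do not state. Each group has 3 labelled replicates, apart from TET2 under DMSO with 2, but each target and treatment has 1 peak list, which from its name pools the replicates and sets them against input. No difference between treatments therefore has a replicate check, and no test between them was possible.

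At an imprinted gene, the copies inherited from the mother and the father are used differently. At this locus, H19, a long noncoding RNA, is normally made from the maternal copy, and IGF2, a fetal growth factor, from the paternal one. CTCF is a zinc finger protein that shapes chromatin loops and acts as an insulator. It binds the control region on the unmethylated maternal copy, where it keeps the shared enhancers beyond the H19 end away from IGF2, and DNA methylation of the paternal copy prevents that binding. MBD3 is a subunit of NuRD, a complex that remodels nucleosomes and removes histone acetyl groups, and the TET proteins are enzymes that oxidise methylcytosine. The lists do not tell the parental copies apart, and neither methylation nor RNA was measured.

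The hg19 sequence of the control region was not used here. The RefSeq tables, in build GRCh38.p14, matched 3 of the 4 gene names looked up. They hold 250 bases before to 50 bases after the start of H19 and of INS, the insulin gene, which follows the IGF2 start in the RefSeq gene order. IGF2 is the name that did not match, and the entry of the INS-IGF2 readthrough gene is identical to that of INS. The sequences are shown because CTCF binding here is known to depend on CpG methylation and on a conserved core, GGNGGCAG, which was searched on both strands. In H19 (chr11:2001217-2001516, minus strand, GRCh38.p14) the capitals mark CpG dinucleotides, and in INS (chr11:2161160-2161459, minus strand, GRCh38.p14) they mark the match to the core.
H19: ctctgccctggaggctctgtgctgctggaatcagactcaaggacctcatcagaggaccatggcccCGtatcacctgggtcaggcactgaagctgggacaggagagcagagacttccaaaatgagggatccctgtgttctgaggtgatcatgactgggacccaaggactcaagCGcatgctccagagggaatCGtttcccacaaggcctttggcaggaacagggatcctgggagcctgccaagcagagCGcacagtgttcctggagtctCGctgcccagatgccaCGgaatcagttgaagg
INS: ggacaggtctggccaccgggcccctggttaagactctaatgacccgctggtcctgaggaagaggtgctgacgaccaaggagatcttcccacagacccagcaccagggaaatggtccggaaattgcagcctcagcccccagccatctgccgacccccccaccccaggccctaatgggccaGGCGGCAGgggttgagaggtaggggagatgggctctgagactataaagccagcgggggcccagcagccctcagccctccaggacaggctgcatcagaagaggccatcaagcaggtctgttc
The promoter at the RefSeq start of H19 held 6 CpG dinucleotides and 0 matches to the core, and the INS promoter 7 CpG dinucleotides and 1 match. Of all 35116 promoters of the same length in the table, 16.7% held the core, the median number of CpG dinucleotides was 14, and 33.7% had fewer than H19. The H19 gene spans 6091 bp in RefSeq against 2660 bp in the window used here. Its RefSeq start therefore need not be the H19 start from which positions are measured below. Counted from the same gene end it would fall inside the control region, but it was not placed on the hg19 peaks.

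Peak strength is given below as a pileup multiple. This is the number of fragments stacked at the summit, which is the position of highest signal, divided by the lowest local background of that list. That genome background was 2.58 fragments for CTCF under BPK-25 and 3.68 under DMSO, and 2.57 for MBD3 under BPK-25 and 3.21 under DMSO. It was 1.65 for TET3 under BPK-25 and 1.70 under DMSO. The 95% intervals are exact and cover counting error only. The fold enrichment is the deposited ratio of pileup to local background at the same summit, from the authors' peak caller. Positions are bases or kb from the H19 start, positive toward IGF2.

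Across the window CTCF signal was spread over many weak peaks under BPK-25 and held by fewer peaks, some of them strong, under DMSO. The pileup multiple of the window's CTCF peaks had a median of 7.37 and a highest value of 15.9 under BPK-25, against 14.4 and 361 under DMSO. The lower quartile of the DMSO peaks was 7.61, so not all of them were strong. Over the whole lists the median was 6.98 under BPK-25 and 19.6 under DMSO, so this contrast was not particular to the window. CTCF peaks covered 32.1% of the window under BPK-25 and 6.56% under DMSO. For MBD3 no peak came near the highest CTCF multiple under DMSO. The median MBD3 multiple was 7.40 and the highest 17.5 under BPK-25, and 4.36 and 17.1 under DMSO. MBD3 peaks covered 32.9% of the window under BPK-25 and 11.4% under DMSO. The strongest signal of the locus in any list was thus CTCF under DMSO.

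A fold enrichment of 10 or more was reached by 1 of 120 CTCF peaks under BPK-25, in a list where 0.942% reached it, and by 12 of 23 under DMSO, in a list where 53.2% did. For MBD3 it was 1 of 115 peaks under BPK-25 (list 0.932%) and 1 of 48 under DMSO (list 6.32%). For CTCF both counts were near the shares of their lists, so low fold enrichments under BPK-25 were not particular to this locus.

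**Figure D1:**
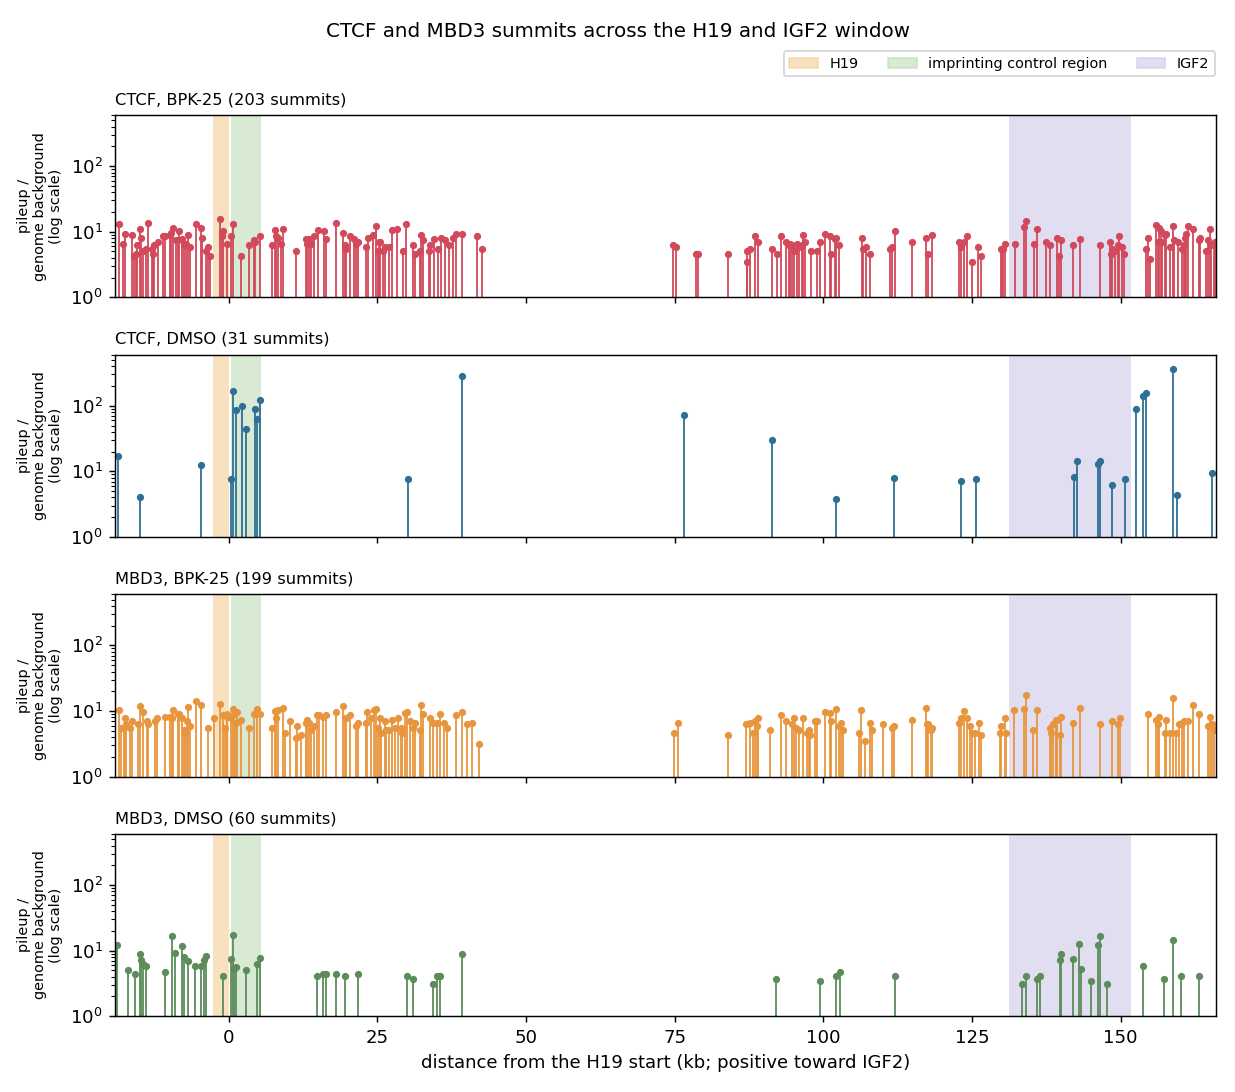
Pileup over genome background (log scale) of every CTCF and MBD3 summit in the window, by distance from the H19 start in kb, with a panel per list and shading for H19, its control region and IGF2. CTCF under BPK-25 stays at or below 15.9 throughout, while CTCF under DMSO reaches 361; no list has a peak between 42.6 and 74.6 kb.

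The window was crowded compared with the rest of the chromosome. CTCF peaks numbered 649 per Mb in the window and 91.6 per Mb along chromosome 11 under BPK-25, and 124 and 36.1 per Mb under DMSO. For MBD3 the densities were 622 and 92.6 per Mb under BPK-25, and 259 and 28.7 per Mb under DMSO. Among 728 stretches of chromosome 11 of the same length, the window ranked 5 by CTCF peaks under BPK-25 and 15 under DMSO, and 6 by MBD3 peaks under BPK-25 and 3 under DMSO. The crowding extends past the window. In the 2 Mb between it and the chromosome end, CTCF peaks numbered 538 per Mb under BPK-25 and 120 per Mb under DMSO, and MBD3 peaks 538 and 190 per Mb. The part of this chromosome end in the counts was not tested. The longest stretch that no peak of any list touched ran for 32.1 kb, chr11:2061661-2093710, between the control region and IGF2.

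Inside the imprinting control region CTCF had 6 summits under BPK-25, all of them low, and 7 under DMSO, all of them high. The one nearest H19 lay 692 bases from the H19 start under BPK-25 and stacked 34 fragments, a multiple of 13.2 (95% interval 9.14 to 18.4) and a fold enrichment of 7.56. The DMSO summit, at 691 bases, stacked 623 fragments, a multiple of 169 (156 to 183) and a fold enrichment of 71.7. The BPK-25 multiple was 7.80% of the DMSO multiple at this site, and the intervals do not overlap. Both peaks are wide, at chr11:2019214-2020341 under BPK-25 and chr11:2019260-2020635 under DMSO, and each begins in the short gap between the H19 start and the control region.

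At 1228 bases from the H19 start DMSO had a CTCF summit with a multiple of 86.9 (77.7 to 97.0). This base lies inside the wide BPK-25 CTCF peak given above, which has no summit of its own there. At the next peak, chr11:2020968-2021566 in the DMSO list, CTCF had a multiple of 4.27 (2.13 to 7.64) under BPK-25, against 98.3 (88.5 to 109) under DMSO, and fold enrichments of 2.77 and 41.7. The BPK-25 multiple was 4.34% of the DMSO one, the lowest share of the control region. At the third DMSO peak, chr11:2021806-2022173, CTCF had no peak under BPK-25, and a multiple of 44.8 (38.2 to 52.2) and a fold enrichment of 31.6 under DMSO. It was the weakest of the 7 summits under DMSO.

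The last peak, chr11:2023243-2024510, carries 3 summits under DMSO, at 4397, 4781 and 5199 bases, with multiples of 89.6, 63.6 and 123. The highest of them, at 5199 bases, stacked 22 fragments under BPK-25 and 452 under DMSO. This gave a multiple of 8.54 (5.35 to 12.9) under BPK-25, against 123 (112 to 135) under DMSO, and fold enrichments of 4.66 and 61.1. The BPK-25 list has its own summits nearby, at 4229 and 4330 bases, with multiples of 7.37 and 6.98, and 1 at 3461 bases, with a multiple of 6.21, where DMSO has none. Spacing between neighbouring DMSO summits in the control region ranged between 384 and 1449 bases. In all, the CTCF multiples of the control region lay between 4.27 and 13.2 under BPK-25 and between 44.8 and 169 under DMSO, and these ranges do not overlap.

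The number of CTCF peaks in the control region hides this difference in height, with 5 under BPK-25 and 4 under DMSO. CTCF peaks covered 42.1% of the control region under BPK-25 and 67.2% under DMSO. It was the one element of the window with less CTCF coverage under BPK-25.

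MBD3 was listed at the control region in both treatments, at heights close to the CTCF heights under BPK-25. At the first site the MBD3 multiple was 10.9 (7.25 to 15.8) under BPK-25 and 17.1 (12.9 to 22.3) under DMSO, with summits 690 and 704 bases from the H19 start. The DMSO value, with a fold enrichment of 7.77, was the highest MBD3 multiple of the whole window in DMSO cells, and its interval overlaps that under BPK-25. At the site 5199 bases from the H19 start, MBD3 had a multiple of 8.96 (5.68 to 13.4) under BPK-25 and 7.78 (5.04 to 11.5) under DMSO. At the third site MBD3 had no peak under BPK-25 and a multiple of 4.98 (2.85 to 8.09) under DMSO, and at the site 2139 bases from the H19 start it had 7.40 under BPK-25 and no peak under DMSO. The other BPK-25 MBD3 peaks of the control region had multiples of 10.9 (7.25 to 15.8) at chr11:2023732-2023883, 8.96 (5.68 to 13.4) at chr11:2023206-2023505 and 5.45 (2.98 to 9.15) at chr11:2022325-2022597, with fold enrichments of 3.85, 4.74 and 2.36. MBD3 peaks covered 46.6% of the control region under BPK-25 and 40.6% under DMSO, so the MBD3 values of the treatments lay closer together than those of CTCF, a difference that was not tested.

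**Figure D2:**
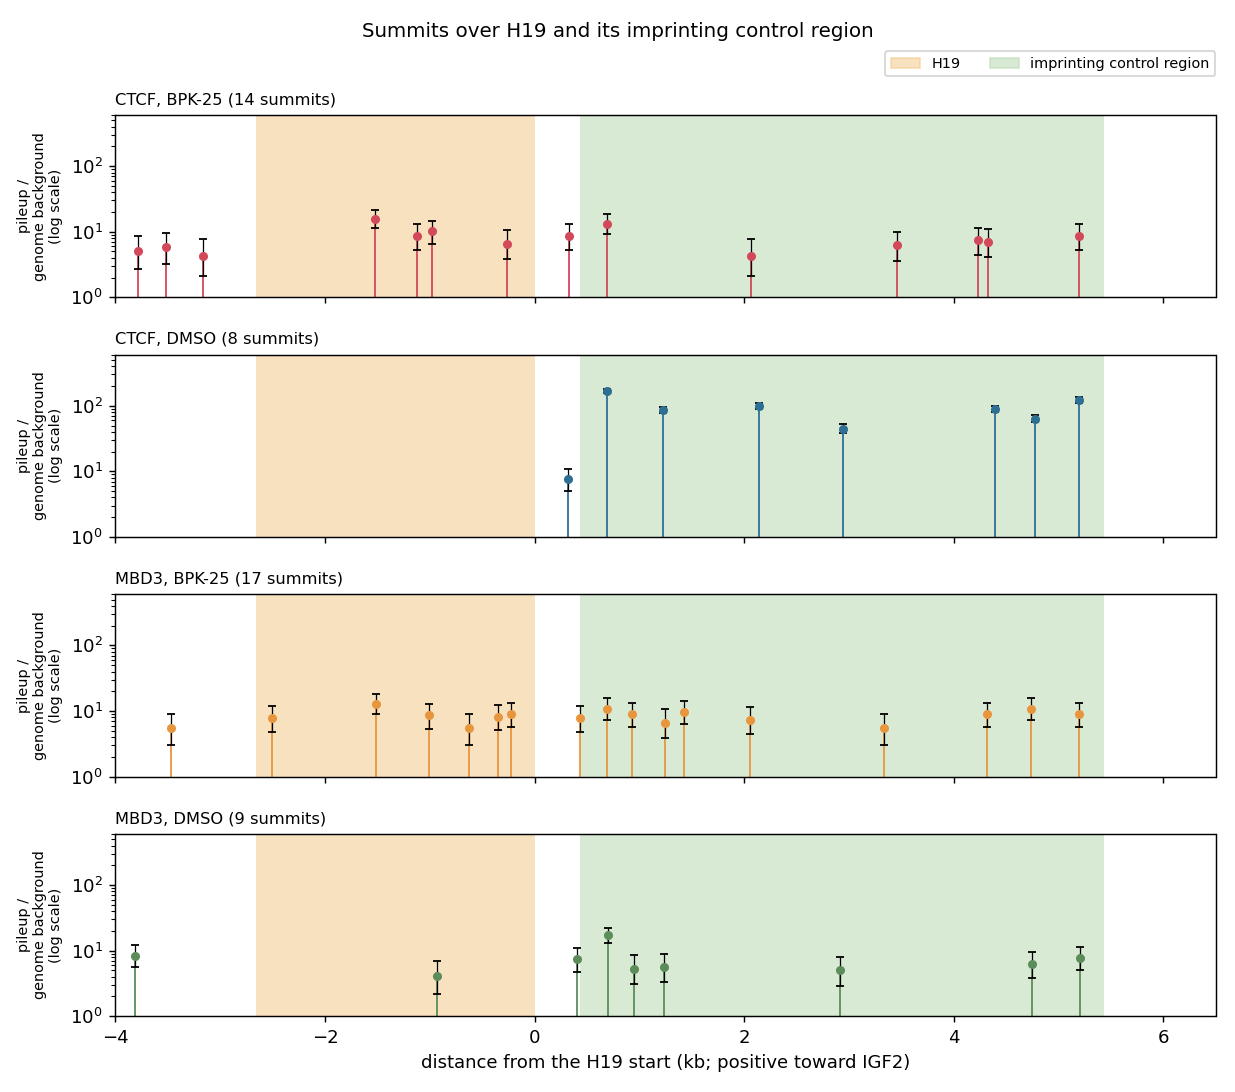
Pileup over genome background (log scale) at each summit over H19 and the imprinting control region, by distance from the H19 start in kb, with exact 95% counting intervals, for CTCF and MBD3 under BPK-25 and under DMSO. The CTCF summits of the control region lie at or below 13.2 under BPK-25 and at or above 44.8 under DMSO, while the H19 body has CTCF summits under BPK-25 alone.

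The H19 gene body showed the opposite arrangement for CTCF, with 2 peaks under BPK-25 and 0 under DMSO. BPK-25 CTCF peaks that overlap no DMSO CTCF peak made up 82.5% of those in the window and 83.3% of the whole list. Having only such peaks is therefore not a trait particular to H19, which held 2 of them. The stronger, chr11:2017422-2018397, stacked 41 fragments at a summit inside the gene, at -1521 bases, a multiple of 15.9 (11.4 to 21.6) and a fold enrichment of 10.6. It was the strongest CTCF peak of the window under BPK-25, and 98.3% of the BPK-25 CTCF list was weaker by -log10 q. The other, chr11:2018560-2018929, had a multiple of 6.60 (3.84 to 10.6) and a fold enrichment of 4.38. The lowest pileup called in the DMSO CTCF list corresponds to a multiple of 2.99, so a CTCF peak as high as either would have been above the weakest peaks called under DMSO. That minimum is over the whole list. Calls also depend on local background, so whether such a peak would have been called on H19 was not tested.

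MBD3 also had more and higher peaks on H19 under BPK-25, but unlike CTCF it had a DMSO peak there. Under BPK-25 it had a peak at chr11:2017325-2018961, with a multiple of 12.9 (8.85 to 18.1) and a fold enrichment of 8.58, and its highest summit lay 12 bases from the CTCF one. A smaller MBD3 peak, chr11:2016425-2016656, had a multiple of 7.79 (4.76 to 12.0) under BPK-25, near the H19 end. Under DMSO the single MBD3 peak of the gene, chr11:2017943-2018221, had a multiple of 4.05 (2.15 to 6.92) and a fold enrichment of 2.95. MBD3 peaks covered 70.3% of H19 under BPK-25 and 10.5% under DMSO, and CTCF peaks 50.6% and 0%.

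IGF2 had CTCF peaks in both treatments, none of them as strong as those of the control region under DMSO. Counted by summit, 13 lay in the gene under BPK-25 and 4 under DMSO, covering 30.8% and 9.13% of it. The highest under BPK-25, chr11:2152657-2153332, had a multiple of 14.7 (10.4 to 20.2) and a fold enrichment of 9.88, and no DMSO CTCF peak overlapped it. Of the 5 next by -log10 q, chr11:2154163-2155095 had a multiple of 10.9 and a fold enrichment of 5.79. The other 4 had multiples between 6.98 and 8.15 and fold enrichments between 4.82 and 5.87.

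The 4 DMSO CTCF peaks of IGF2 were modest. At chr11:2165088-2165682 the multiple was 6.21 (3.55 to 10.1) under BPK-25 and 14.4 (10.8 to 18.8) under DMSO, at summits 10 bases apart. The BPK-25 multiple was 43.1% of the DMSO one, a larger share than at the paired summits of the control region. At chr11:2160989-2161854 the BPK-25 summit, 141986 bases from the H19 start, had a multiple of 6.21 (3.55 to 10.1), and the nearer of the DMSO summits, at 142122 bases, had 8.15 (5.50 to 11.6), so these intervals overlap. The higher DMSO summit of that peak, at 142681 bases, had 14.4, and the nearest BPK-25 CTCF summit lay 386 bases from it. At chr11:2167473-2167686 the multiple was 5.43 under BPK-25 and 6.25 under DMSO. The last, chr11:2169618-2169812, was overlapped by a BPK-25 peak whose summit lay outside it, and had a multiple of 7.61 and a fold enrichment of 5.98 under DMSO.

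MBD3 had 11 peaks in IGF2 under BPK-25 and 10 under DMSO, numbers closer together than in the interval. Its strongest BPK-25 peak of the window, chr11:2152671-2153306, lay on the strongest CTCF peak of the gene, with a multiple of 17.5 (12.8 to 23.5) under BPK-25. The DMSO MBD3 peak there, chr11:2153053-2153234, had a multiple of 4.05 (2.15 to 6.92). The fold enrichments at this site were 11.7 under BPK-25 and 3.32 under DMSO.

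The strongest DMSO MBD3 peak of IGF2 lay elsewhere. At chr11:2165002-2165791 the multiple was 6.23 (3.56 to 10.1) under BPK-25 and 16.5 (12.4 to 21.6) under DMSO, with a DMSO fold enrichment of 12.3. Its DMSO summit falls on the same base as the DMSO CTCF summit, 146497 bases from the H19 start. MBD3 therefore was higher under BPK-25 at the first of these positions in IGF2 and higher under DMSO at the other. The counting intervals of the treatments do not overlap at either. However, each position was picked as the strongest of its own list in IGF2, which favours that list. The intervals cover neither this choice nor the spread of replicates, and the difference was not tested.

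The remaining IGF2 peaks of highest -log10 q were as follows. Under BPK-25, MBD3 peaks had a multiple of 11.3 at chr11:2161965-2162506, and of 10.5 at both chr11:2150906-2151406 and chr11:2154124-2155057. At chr11:2158064-2159194 the multiple was 8.18, and at chr11:2160954-2161157 it was 6.62. Under DMSO, MBD3 peaks had a multiple of 12.8 at chr11:2161695-2162537, 9.03 at chr11:2158678-2159569 and 7.47 at chr11:2160931-2161259. The last of the DMSO peaks considered, chr11:2155357-2155526, had a multiple of 4.05.

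**Figure D3:**
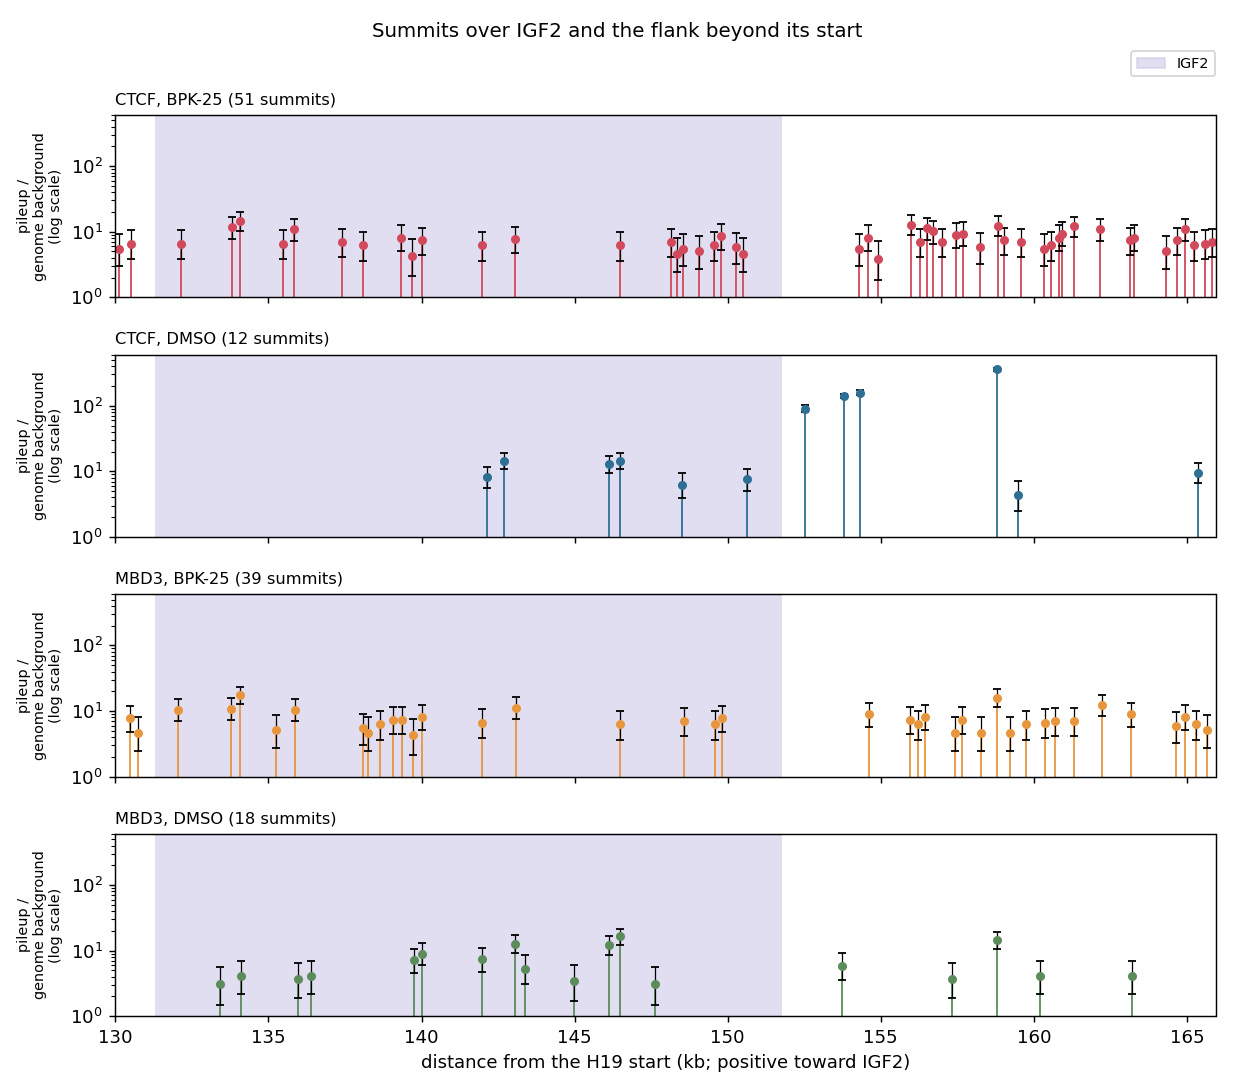
Pileup over genome background (log scale) at each summit over IGF2 and the flank beyond its start, by distance from the H19 start in kb, with exact 95% counting intervals, for CTCF and MBD3 under BPK-25 and under DMSO. In IGF2 no CTCF summit exceeds 14.7 under BPK-25 or 14.4 under DMSO, and the tall DMSO CTCF summits stand beyond its start.

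Outside the genes and the control region, 3 further DMSO CTCF sites were among the highest. The strongest of the window, chr11:2177632-2178638, lies beyond the IGF2 start, 158810 bases from the H19 start. It had a multiple of 12.4 (8.49 to 17.5) under BPK-25, against 361 (342 to 381) under DMSO, and fold enrichments of 7.66 and 230. It was also one of the strongest MBD3 sites of the window, with MBD3 multiples of 16.0 under BPK-25 and 14.3 under DMSO. In the DMSO CTCF list 97.7% of peaks were weaker.

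The second, chr11:2057831-2058547, is the highest of 8 DMSO CTCF peaks in the interval between the control region and IGF2, 39228 bases from the H19 start. It had a multiple of 9.31 (5.97 to 13.9) under BPK-25, against 285 (268 to 303) under DMSO, where 1050 fragments were stacked. The BPK-25 multiple was 3.27% of the DMSO one. MBD3 there had a multiple of 9.74 under BPK-25 and 9.03 under DMSO. At the third, chr11:2172481-2173803, CTCF had a multiple of 8.15 under BPK-25 and 158 under DMSO, or 5.15%, and the highest MBD3 multiples within the peak were 8.96 and 5.91, at other positions.

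Of the 23 DMSO CTCF peaks, 19 overlapped a BPK-25 CTCF peak (82.6%, exact 95% interval 61.2 to 95.0), where 39.2% of the whole DMSO list did. By strength within the list, 2 of 2 window peaks among its strongest 10% were retained (list 70.6%), 12 of 13 among its weaker 50% (list 42.2%) and 5 of 8 between these (list 27.7%). At a -log10 q of at least 10 in both lists, 7 of 20 were retained (35.0%), so the share depends on this threshold. The share of the whole list was not computed at this threshold, so the 35.0% cannot be set against the 39.2%. An overlap of intervals is not an equal height, as the control region shows. The share is also read against the crowding above, since BPK-25 CTCF peaks covered 32.1% of the window and 3.29% of chromosome 11, and the part of that coverage in the share was not tested.

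The 4 DMSO CTCF peaks with no BPK-25 CTCF peak included strong ones. They were the third control region peak, chr11:2095463-2095942 in the interval with a multiple of 72.2, chr11:2171343-2171874 beyond the IGF2 start with a multiple of 90.7, and chr11:2144602-2144799 in the interval with a multiple of 7.61. The first 3 also had no MBD3 peak under BPK-25.

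Where both treatments had a CTCF summit within 200 bases, at 16 of the 23 sites, the BPK-25 multiple was a median 0.522 of the DMSO multiple, with quartiles of 0.0630 and 0.877. Over the list, 33581 of 99587 sites had such a pair, and the same ratio had a median of 0.571, with quartiles of 0.0893 and 1.31. The lowest ratio of the list was 0.00803, so low ratios like those of the control region were not particular to this locus. Within the window the lowest ratios were those of the strong DMSO sites given above. At weak DMSO sites the BPK-25 value was at times the higher of the 2, with multiples of 10.9 under BPK-25 and 4.07 under DMSO at chr11:2004073-2004233, and 8.15 and 3.80 at chr11:2121040-2121202. Of the 23 DMSO summits, 13 had a BPK-25 CTCF summit within 100 bases and 6 within 20 bases. These 2 counts were not made over the list, and BPK-25 CTCF peaks covered 32.1% of the window.

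**Figure D4:**
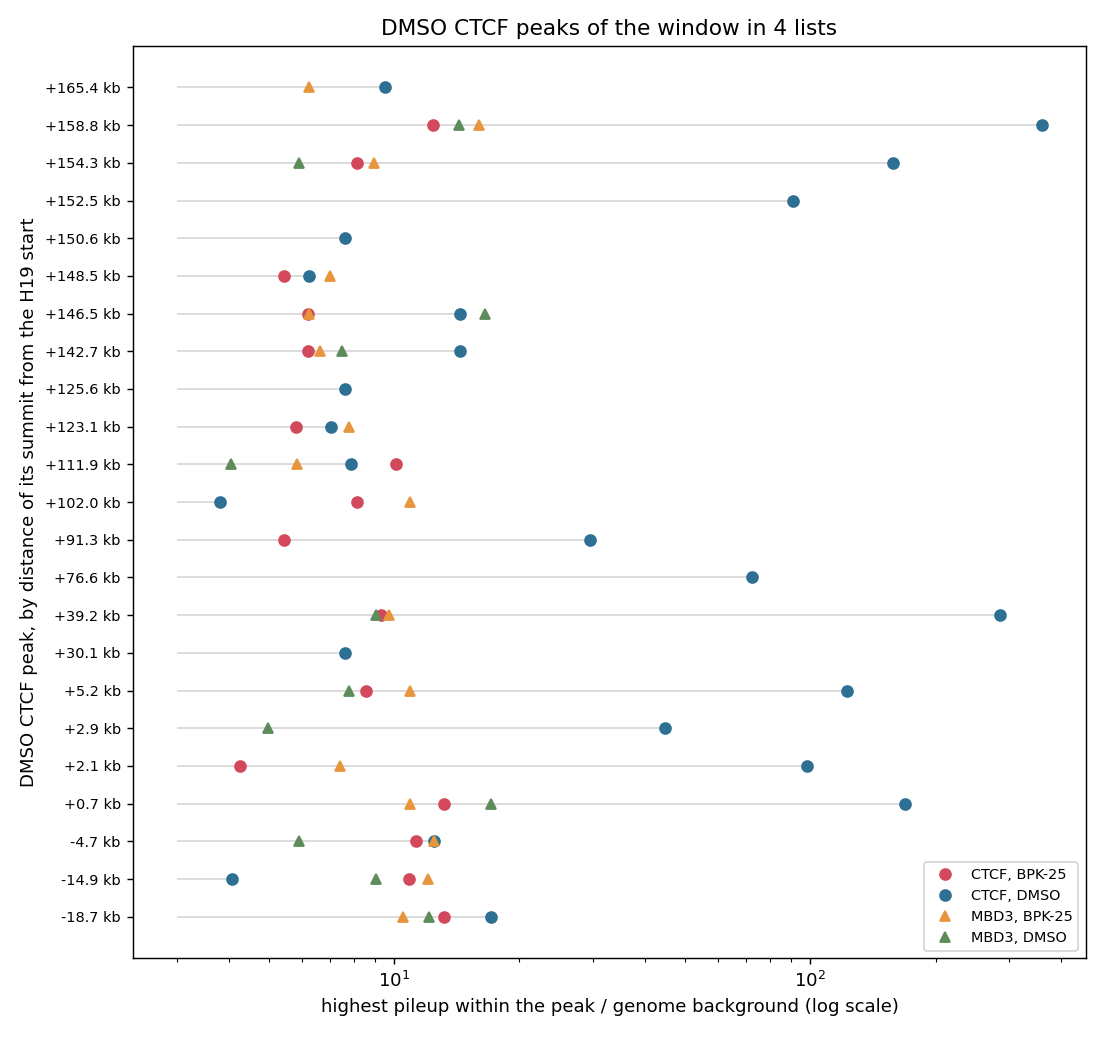
Highest pileup over genome background (log scale) of CTCF (circles) and MBD3 (triangles) under BPK-25 and DMSO within each of the 23 DMSO CTCF peaks, ordered by distance from the H19 start; a missing symbol means no summit of that list inside the peak. CTCF under BPK-25 and MBD3 in both treatments stay at or below 17.1, whatever the CTCF height under DMSO.

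Of the 120 BPK-25 CTCF peaks, 99 overlapped no DMSO CTCF peak (82.5%, 74.5 to 88.8), close to the 83.3% of the whole BPK-25 list. These new peaks were about as high as the retained ones, with a median multiple of 7.37 (lowest 3.49, highest 15.9), against 8.15 for the 21 that overlapped a DMSO peak. The interval between the control region and IGF2 held 71 CTCF peaks under BPK-25 and 8 under DMSO, with 24.8% and 2.13% of it covered. Its 3 peaks of highest -log10 q under BPK-25 were new, with multiples of 12.4 at chr11:2042834-2044598, 13.6 at chr11:2036692-2037365 and 10.9 at chr11:2047100-2047638.

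The flank beyond the H19 end held 18 CTCF peaks under BPK-25 and 3 under DMSO and was covered by CTCF peaks for 62.9% of its length under BPK-25 and 5.38% under DMSO. Its BPK-25 peaks of highest -log10 q had multiples of 13.6 at chr11:2004581-2005559, 13.2 at chr11:2013333-2013642 and 11.3 at chr11:2014215-2014656. The DMSO peaks there were lower than those of the control region under DMSO, with multiples of 17.1 at chr11:2000176-2000683, 12.5 at chr11:2014244-2014457 and 4.07 at the third. The highest of them was above every BPK-25 CTCF peak of this flank. The flank beyond the IGF2 start held 11 CTCF peaks under BPK-25 and 4 under DMSO. Beside the strong sites already given, its BPK-25 peaks of highest -log10 q had multiples of 12.8 at chr11:2174923-2176174 and 12.0 at chr11:2179351-2180529.

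The other DMSO CTCF sites of the interval were lower than the control region. At chr11:2110187-2110612 the multiple was 5.43 under BPK-25 and 29.6 under DMSO, and at chr11:2130854-2131132 it was 10.1 and 7.88. At chr11:2142062-2142281 it was 5.82 under BPK-25 and 7.06 under DMSO. The weak DMSO peaks at chr11:2049068-2049252 and at the far edge of the window, chr11:2184318-2184550, had multiples of 7.61 and 9.51.

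MBD3 had more peaks under BPK-25 as well, most of the difference lying in the interval between the control region and IGF2, with 71 peaks under BPK-25 and 17 under DMSO. Of the 48 DMSO MBD3 peaks, 41 overlapped a BPK-25 MBD3 peak (85.4%, 72.2 to 93.9), against 61.4% of the list. At a -log10 q of at least 10 in both lists 6 of 11 did (54.5%), a threshold at which the list share was not computed. BPK-25 MBD3 peaks covered 32.9% of the window and 3.44% of chromosome 11, and the part of that coverage in the retained share was not tested. Of the 115 BPK-25 MBD3 peaks, 73 overlapped no DMSO MBD3 peak (63.5%, 54.0 to 72.3), against 78.2% of the list. Summits lay within 200 bases at 36 of the 48 DMSO peaks (list 46513 of 82358). There the BPK-25 multiple was a median 1.64 times the DMSO multiple (quartiles 1.11 and 2.12), against 1.17 over the list.

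Outside the genes and the control region, the BPK-25 MBD3 peaks of highest -log10 q in the flank beyond the H19 end had multiples of 14.0 at chr11:2013184-2013751, 12.5 at chr11:2014206-2014459 and 12.1 at chr11:2003542-2004384. In the flank beyond the IGF2 start they had multiples of 16.0 at chr11:2177599-2178346, 12.5 at chr11:2180795-2181612 and 8.18 at chr11:2183319-2184982. In the interval they were chr11:2051048-2052010 with a multiple of 12.5, and chr11:2042923-2044915 and chr11:2120800-2121342 with 10.9 each. Under DMSO the flank beyond the H19 end held the highest, chr11:2009333-2009735, with a multiple of 16.8 and a fold enrichment of 6.18, and the next had 12.1 at chr11:2000043-2000810 and 9.03 at chr11:2004019-2005300. There MBD3 peaks numbered 15 under BPK-25 and 12 under DMSO. In the interval the highest DMSO MBD3 peak was the one on that highest CTCF site, with 9.03 as given above, and the next, chr11:2121663-2121992 and chr11:2036822-2037228, had multiples of 4.67 and 4.36. Beyond the IGF2 start, the DMSO MBD3 peak chr11:2177730-2178306 had a multiple of 14.3, and those next to it by -log10 q, chr11:2182139-2182356 and chr11:2179092-2179385, had 4.05 each.

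**Figure D5:**
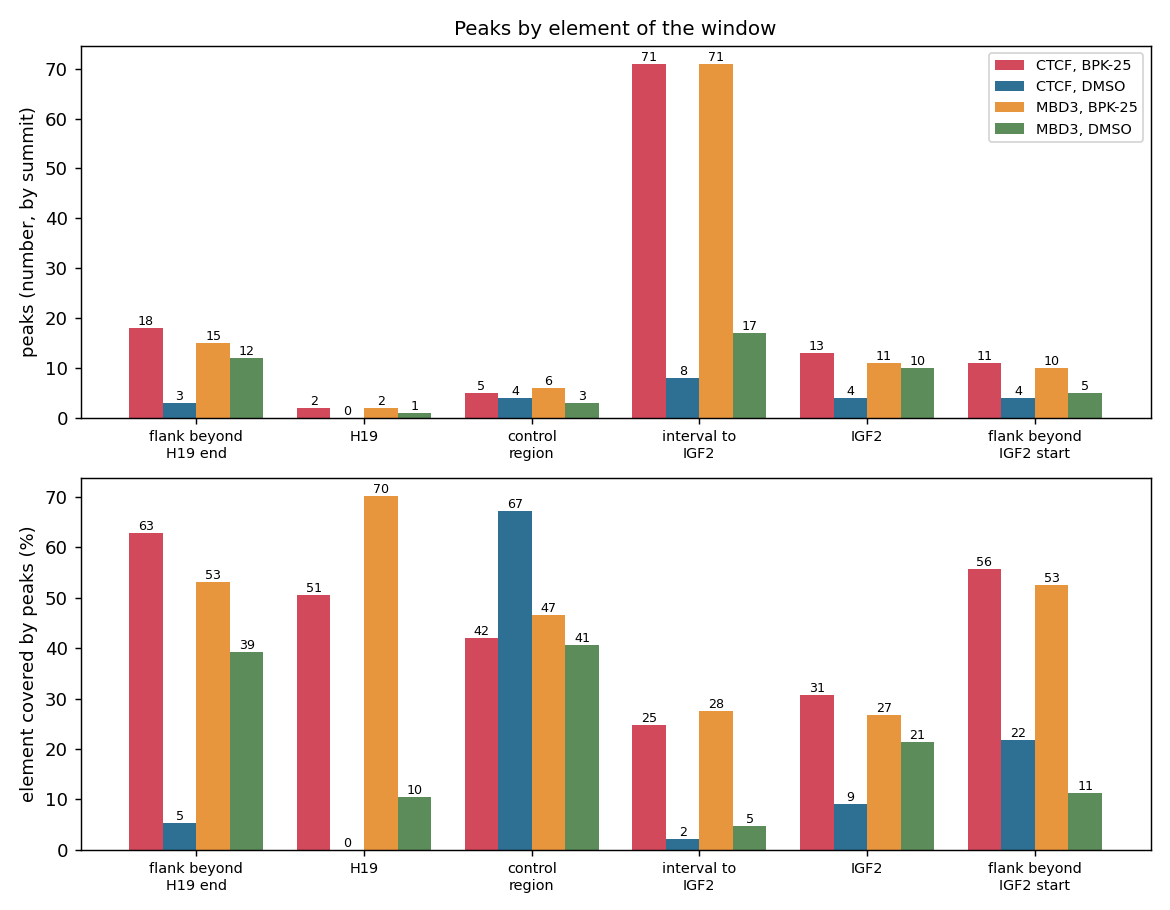
Number of peaks assigned by summit (top) and percent of the element covered by peaks (bottom) for 6 elements of the window, with bars for CTCF under BPK-25 and DMSO and MBD3 under BPK-25 and DMSO. The interval to IGF2 holds 71 CTCF peaks under BPK-25 and 8 under DMSO, and CTCF covers 42.1% of the control region under BPK-25 and 67.2% under DMSO.

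CTCF and MBD3 peaks largely fell in the same places under BPK-25, less so at the strictest threshold. Of the BPK-25 CTCF peaks, 109 of 120 overlapped a BPK-25 MBD3 peak (90.8%, 84.2 to 95.3; list 69%), and of the DMSO CTCF peaks, 14 of 23 overlapped a DMSO MBD3 peak (60.9%, 38.5 to 80.3; list 36.9%). With a -log10 q of at least 5 in all lists, the overlap was 71 of 79 under BPK-25 (89.9%) and 7 of 21 under DMSO (33.3%). With at least 10 it was 18 of 29 (62.1%) and 6 of 20 (30.0%). The shares of the whole lists were not computed at these thresholds. As a share of MBD3 peaks, 99 of 115 overlapped CTCF under BPK-25 (86.1%; list 69.1%) and 15 of 48 under DMSO (31.2%; list 43.3%). The new CTCF peaks overlapped BPK-25 MBD3 in 89 of 99 (89.9%; list 64.9%), and the new MBD3 peaks overlapped BPK-25 CTCF in 60 of 73 (82.2%; list 63.2%).

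Across treatments, 42 of 48 DMSO MBD3 peaks overlapped a BPK-25 CTCF peak (87.5%; list 60.3%). BPK-25 MBD3 peaks were found on 19 of 23 DMSO CTCF peaks (82.6%; list 40.2%). The coverage of the window, 32.1% for CTCF and 32.9% for MBD3 under BPK-25, stands beside these overlaps too.

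The heights of CTCF and MBD3 were nearly equal under BPK-25 and not under DMSO. An MBD3 summit lay within 200 bases of the BPK-25 CTCF summit at 97 of 120 peaks (list 161400 of 245419). There the MBD3 multiple was a median 0.968 of the CTCF multiple, with quartiles of 0.870 and 1.16 (list median 1.00). Under DMSO, at 12 of 23 sites (list 34315 of 99587), the median was 0.494, with quartiles of 0.0917 and 0.798 (list median 0.372). This likeness under BPK-25 was thus shared with the list as a whole. The local backgrounds of the paired summits had a median ratio of 1.00 under BPK-25 and 1.09 under DMSO.

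TET peaks were few here, as along the chromosome. TET3 peaks numbered 10.8 per Mb in the window and 3.90 per Mb along chromosome 11 under BPK-25, and 16.2 and 4.66 per Mb under DMSO. TET1 had 0.141 per Mb along the chromosome under BPK-25 and 1.86 under DMSO, and TET2 0.148 and 0.416, densities at which most stretches of this length hold none. TET3 had 2 peaks under BPK-25, chr11:2000275-2000438 with a multiple of 6.08 (2.91 to 11.2) and chr11:2010009-2010286 with 4.86. Under DMSO it had 3, chr11:2000138-2000372 and chr11:2009512-2009713 with multiples of 8.25 each (4.51 to 13.9 at the first) and chr11:2154626-2154821 in IGF2 with 5.90 (2.83 to 10.8). None lay in the control region or H19 in either treatment. Of the DMSO peaks 1 of 3 overlapped a BPK-25 TET3 peak (list 31.9%), and of the BPK-25 peaks 1 of 2 was new (list 65.8%). Both BPK-25 peaks overlapped BPK-25 CTCF peaks (2 of 2, list 42.5%), and all DMSO peaks overlapped DMSO MBD3 peaks (3 of 3, list 82.6%). These counts are too small to set against the lists. A list of peaks does not give the signal below its threshold. Absent TET binding at the control region therefore cannot be told from binding too weak to be called.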

How the data were processed

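The source was 10 deposited peak lists from ChIP-seq of 5 targets under BPK-25 or DMSO. Tools named in the submitters' processing notes are MACS2 2.1.2, bedtools 2.25.0, Bowtie2 2.3.4, SAMtools 1.9 and FastQC 0.11.7, with build hg19; what each did is not given in the sources used here. Each summit in the deposited lists carries a score, a fold enrichment (the ratio of pileup to local background), a -log10 p-value, a -log10 q-value and the summit's offset, all from the authors' peak caller. Coordinates are hg19 and 1-based.

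Rows that overlapped or touched were merged per list, and each peak kept the values of its summit of highest -log10 q. Pileup n and local background were solved from the fold enrichment, (n + 1) over (background + 1), and the Poisson -log10 p; 100% of summits under 200 fragments came out whole within 0.02 in every list. The method was tested on simulated data. Peaks overlapped where they shared 1 bp or more. Retained means that a DMSO peak overlaps BPK-25 signal of its own target, and new that a BPK-25 peak overlaps none in DMSO. Intervals of shares are Clopper-Pearson and those of pileups exact Poisson, at 95%.

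All peaks were counted by element. Values are given for every peak on H19, the control region or IGF2, up to 6 per list and element by -log10 q, and for the 3 highest elsewhere; other DMSO CTCF peaks and summits were added after their values were seen. Members, lists and comparisons were chosen with earlier results of these data known. Library sizes were not used here; precision follows from the pileups. Alternatives were stricter q-values, merging within 500 bp, no merging, equal pileup requirements, summits within the window, other overlap rules and other scales. Python 3.11.15, pandas 2.3.3 and SciPy 1.17.1 were used.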

Additional observations from a re-analysis of the deposited data

How the results depend on the processing

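With 1 pooled list per target and treatment, results were values without a test, and 40 of 72 alternatives moved 14 results by no more than 1.5 times, or by less than counting error for pileups. The other 32 moved a result further. For overlaps this rule was applied to the number of overlapping peaks, not to their share. The number of DMSO CTCF peaks stayed between 20 and 31 throughout. At a -log10 q of at least 5, peaks numbered 79 for BPK-25 CTCF, 16 for DMSO MBD3, 0 for BPK-25 TET3 and 1 for DMSO TET3. Retained DMSO MBD3 peaks were then 15 of 16, a larger share than the 85.4% without the threshold, and CTCF peaks with MBD3 were 71 of 79 under BPK-25 and 7 of 21 (33.3%) under DMSO. At 10 or more, CTCF and MBD3 each had 29 peaks under BPK-25, DMSO MBD3 had 11, and TET3 had 0 in both treatments. Then 7 of 20 DMSO CTCF peaks (35.0%, against 82.6%) and 6 of 11 DMSO MBD3 peaks (54.5%) were retained. CTCF peaks with MBD3 were 18 of 29 under BPK-25 and 6 of 20 (30.0%) under DMSO. Shares of the whole lists were not computed at these stricter q-values. Merging within 500 bp left 54 BPK-25 peaks for CTCF and for MBD3, with MBD3 on 53 of the 54 CTCF peaks, and without merging they were 203 and 199. At the control region, the median over summits was 7.18 under BPK-25 and 89.6 under DMSO for CTCF, and 5.91 for DMSO MBD3. Scaled by the median local background of each list, CTCF was 8.34 under BPK-25 and 113 under DMSO, and MBD3 6.97 and 10.8. Scaled by local background at the summit, CTCF was 7.56 and 71.7, and MBD3 6.28 and 7.77. CTCF at the control region was lower under BPK-25 on each of these scales. The order of the MBD3 values changed with the median over summits, 8.96 under BPK-25 and 5.91 under DMSO. The cause was not tested. No paired analysis was possible because each list pools the replicates; leaving out a replicate could not be run for the same reason.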

Other observations

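Strong CTCF sites under DMSO continued just outside the window. Within 50 kb of it, CTCF had 42 peaks under BPK-25 and 7 under DMSO on the side of the H19 end, and 39 and 9 on the side of the IGF2 start. The highest DMSO CTCF peaks there were chr11:1974157-1975334, with a multiple of 240, and chr11:2218373-2219191, with a multiple of 445, above any in the window. The highest BPK-25 CTCF peak beside the window, chr11:2186943-2188368, had a multiple of 17.5.

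MBD3 beside the window numbered 45 peaks under BPK-25 and 21 under DMSO on the H19 side, and 39 and 12 on the IGF2 side. Its highest DMSO peak, chr11:1989801-1991406, had a multiple of 22.7 and a fold enrichment of 13.9. The next of note, chr11:2187359-2188061, had a DMSO multiple of 16.2, and the BPK-25 MBD3 peak over it, chr11:2186172-2188288, had 15.6.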
